A study of Mus musculus with 12 samples.

Results

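Interleukin-6 (IL-6) and interleukin-1 (IL-1) signalling genes were followed through 2 mouse models of cholestasis, a disorder of bile formation or flow. The 10 genes were chosen by symbol from the 16970 gene symbols of the table: Socs3, Stat3, Il6ra, Il6st, Osmr, Il1r1, Il1rn, Cebpb, Cebpd and Bcl3, and all 10 were found. RNA came from whole liver, in 4 groups of 3 libraries named in the sample titles. BDL libraries came from mice 7 days after ligation of the bile duct. BDL_H libraries came from ligated mice that waited 3 days after surgery before being dosed for 4 days with 100 mg/kg of the bile acid hyodeoxycholic acid (HDCA). MDR libraries were taken to come from the Abcb4-/- mice of 60 days of age that the series description names, although no title or label names Abcb4. MDR_H libraries were taken as the same mice given HDCA at 100 mg/kg for 21 days. Abcb4, also known as Mdr2, moves phosphatidylcholine into bile. The sources used here do not give strain, sex, the allele or the age of the ligated mice, and neither unoperated nor wild-type livers were analysed here. No label says that replicates are separate animals, so a p-value here reflects how these libraries spread, which may be technical.

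IL-6 binds its own receptor chain, Il6ra, and the complex then engages the shared chain Il6st, known as gp130. Kinases bound to gp130 phosphorylate Stat3, which enters the nucleus and switches on genes that include Socs3, a brake on the same receptor. IL-1 binds Il1r1 and acts through a kinase cascade that activates the transcription factor NF-kappa B, and Il1rn encodes the antagonist that occupies the receptor without signalling. In hepatocytes both cytokines raise the secreted acute phase proteins, in part through the factors Cebpb and Cebpd. The RNA was from whole liver, so no value belongs to hepatocytes alone, and fewer cells of a type and less RNA per cell cannot be told apart.

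Values are FPKM, fragment counts scaled to gene model length and to library depth, so levels can be set side by side between genes. Differences are on the scale of log2(FPKM + 1), come with the standard error (SE) of a limma fit over the 12 libraries, and are described as called where the adjusted p was under 0.05. Depth, as recovered in whole reads, was 34260782 to 40427855 per library, and the 10 genes held 254 to 13832 reads each in any library. BDL replicate 1 and BDL_H replicate 2 stood apart: their medians over the tested genes were 2.48 and 2.56 on the log2 scale, against 2.81 to 2.88 in the other 4 libraries with ligation. Summed FPKM of 4 Y-linked genes ran from 16.1 to 20.1 in the 6 ligation libraries and MDR replicate 1 and was at most 0.016 in the other 5, so the model and this difference cannot be told apart. Abcb4 itself stood at 52.8 to 178.4 FPKM in the ligation libraries and 129.1 to 181.3 FPKM in the MDR and MDR_H libraries, which does not check the genotype, since the sources used here do not give the part of the gene that is altered.

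Promoter sequence is shown for Socs3 and Il1r1, the genes with a STAT or a C/EBP match in the windows described below. Their levels lay apart between the models in every library and moved together between replicates. Stat3 also lay apart in every library and had neither match. The stretches come from RefSeq on GRCm38.p6, each is written 5′ to 3′ on the strand of the gene, and capitals mark the motif that was found. Socs3 is shown from chr11:117969467-117969616 on the minus strand, positions -250 to -101 from the RefSeq start, and its capitals mark TTCNNNGAA, the palindrome bound by STAT factors. Il1r1 is shown from chr1:40224880-40225029 on the plus strand, positions -200 to -51, and its capitals mark TTGCNNAA, a core letter pattern of C/EBP sites.
Socs3: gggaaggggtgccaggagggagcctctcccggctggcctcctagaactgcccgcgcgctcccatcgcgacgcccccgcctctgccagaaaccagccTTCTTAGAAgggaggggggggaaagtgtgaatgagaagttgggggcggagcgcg
Il1r1: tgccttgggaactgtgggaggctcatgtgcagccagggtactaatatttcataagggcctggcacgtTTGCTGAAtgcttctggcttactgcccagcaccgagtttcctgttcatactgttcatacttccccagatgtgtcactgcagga

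In the GENCODE M21 annotation of GRCm38 the printed Socs3 stretch overlaps no exon and lies inside the span of the gene, which runs over chromosome 11 from 117966079 to 117970047. The printed Il1r1 stretch lies just before the gene, which runs over chromosome 1 from 40225080 to 40317257. Motifs were searched on both strands in windows from 250 bases before to 50 bases after each RefSeq start. The table held 12 windows for 9 of the 10 genes and none for Cebpd. The STAT letters occurred in 1 of the 12 windows, that of Socs3 at position -154, and in 8.3% of all 32851 windows of that length. The C/EBP letters occurred in 1 of the 12, that of Il1r1 at -133, and in 10.8% of all windows. The kappa B consensus, a 10-letter pattern of NF-kappa B sites, occurred in a second Il1r1 window at -232 and in the Bcl3 window at 2, and in 4.51% of all windows. A match describes these letters only and does not show that a factor bound there.

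Over the 12 libraries, Cebpb had the highest mean level at 124 FPKM. The 2 chains of the IL-6 receptor differed in level, with Il6st at 39.7 FPKM and Il6ra at 11.5 FPKM. Stat3 had a mean of 41.9 FPKM, Bcl3 of 32.9, Socs3 of 17.4, Il1r1 of 13.1, Cebpd of 10.4 and Il1rn of 9.30. Osmr, the chain that pairs with gp130 to bind oncostatin M, was the lowest at 2.75 FPKM. Each of the 10 genes reached 1 FPKM in every library and was among the 10805 genes tested.

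**Figure D1:**
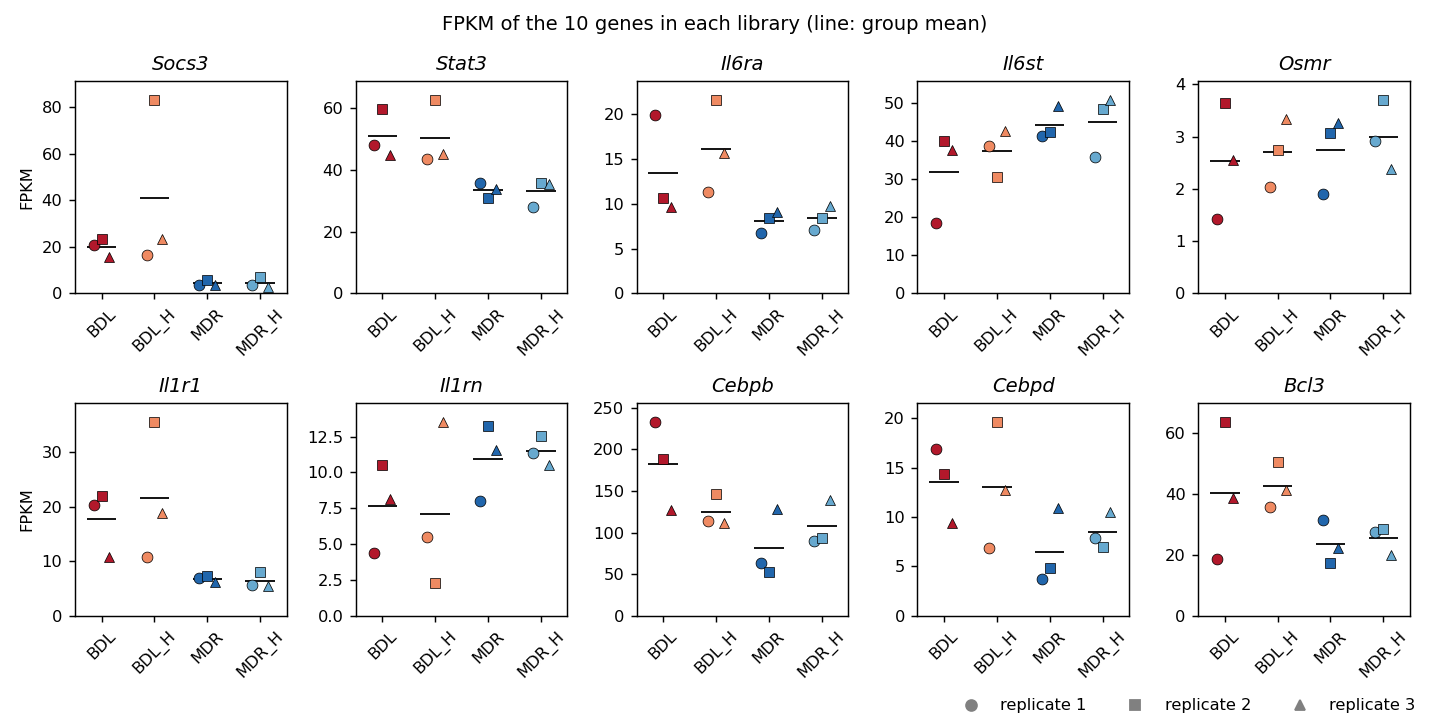
FPKM of each of the 10 genes (linear vertical axes that start at 0) in the 3 libraries of each group, with the marker shape giving the replicate number and the line the group mean. All 6 libraries with ligation lie above all 6 of the MDR and MDR_H groups for Socs3, Stat3 and Il1r1, and BDL_H replicate 2 is the highest library for Socs3, at 82.81 FPKM.

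The models were compared without HDCA first, untreated MDR against untreated BDL. Of the 10 genes, 4 were lower in MDR: Socs3, Stat3, Il1r1 and Cebpb. None was called higher. Over all genes tested, 1.07% were called lower and 15.1% higher, and the median difference over the 10 genes was -0.61 against 0.25 over all genes. The groups did not overlap for 5 of the 10, with MDR lower for Socs3, Stat3, Il6ra and Il1r1 and higher for Il6st, where 3.12% of all genes tested lay apart with MDR lower and 39.2% with MDR higher. Surgery and the sum of Y-linked genes also differed between the models and cannot be told apart from them.

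Socs3, the feedback brake on gp130, had the largest difference of the 10. Its level was 20.72, 23.35 and 15.76 FPKM in BDL and 3.690, 5.721 and 3.565 FPKM in MDR. The lowest BDL library lay well above the highest MDR library. The group means were 19.9 ± 3.86 FPKM in BDL and 4.33 ± 1.21 in MDR (SD, n = 3 each), a difference of -1.98 ± 0.48 (SE, adjusted p = 0.0206 by limma). Without BDL replicate 2, MDR replicate 1, MDR replicate 2 or MDR replicate 3 the adjusted p was 0.0637, 0.0507, 0.0545 and 0.0703, and Socs3 was called with any other single library left out.

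Stat3, the transcription factor of the pathway, stood at 48.11, 59.57 and 44.90 FPKM in BDL. In MDR it stood at 35.67, 30.74 and 33.94 FPKM. The groups did not overlap, and the spread within MDR was small beside the distance to BDL. The difference was -0.58 ± 0.165 (SE, adjusted p = 0.0366 by limma). The call held in 5 of the 12 fits that left out 1 library: the adjusted p was 0.0595 without BDL replicate 1, 0.112 without BDL replicate 2, 0.0564, 0.14 and 0.0911 without MDR replicates 1, 2 and 3, and 0.0507 and 0.0509 without MDR_H replicates 2 and 3.

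The 2 receptor chains of IL-6 lay on opposite sides, and neither was called. Il6ra, the chain that binds the cytokine, was at 19.93, 10.64 and 9.674 FPKM in BDL and 6.739, 8.402 and 9.056 FPKM in MDR. All 3 MDR libraries were below all 3 BDL libraries, and the high BDL value came from replicate 1, one of the libraries that stood apart. The difference in Il6ra was -0.61 ± 0.269 (SE, adjusted p = 0.134 by limma). Il6st, the signalling chain, was at 18.47, 40.00 and 37.73 FPKM in BDL and 41.37, 42.48 and 49.26 FPKM in MDR. Its groups did not overlap either, with the low BDL value again in replicate 1. The difference in Il6st was 0.53 ± 0.258 (SE, adjusted p = 0.17 by limma). Without BDL replicate 1 the difference was -0.307 for Il6ra and 0.183 for Il6st.

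Osmr lay between 1.424 and 3.649 FPKM in BDL and between 1.905 and 3.255 FPKM in MDR. The groups overlapped, and the difference was 0.11 ± 0.243 (SE, adjusted p = 0.761 by limma). The sign of this small difference turned to -0.146 with median-of-ratios scaling and to -0.235 with quantile normalization.

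On the IL-1 side the receptor and its antagonist lay on opposite sides. Il1r1 was at 20.27, 21.98 and 10.79 FPKM in BDL and 6.946, 7.267 and 6.161 FPKM in MDR, with no overlap. The 3 MDR libraries lay within about 1 FPKM of each other, and BDL replicate 3 was closer to them than to the other BDL libraries. The difference in Il1r1 was -1.21 ± 0.359 (SE, adjusted p = 0.0435 by limma). This call was the most fragile of the 4. It held in 3 of the 12 fits that left out 1 library, where the difference ran from -1.51 to -1.03, and the adjusted p was 0.0627 with no filter on low values, 0.0567 when genes under a mean of 5 FPKM were dropped and 0.0514 with quantile normalization.

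Il1rn, which encodes the receptor antagonist, was at 4.375, 10.53 and 8.148 FPKM in BDL and 7.993, 13.25 and 11.59 FPKM in MDR. The groups overlapped, and the difference was 0.50 ± 0.443 (SE, adjusted p = 0.424 by limma), or 0.192 without BDL replicate 1.

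Among the nuclear factors, Cebpb was called and Cebpd and Bcl3 were not. Cebpb, a C/EBP factor that acts on acute phase promoters, was at 232.5, 188.1 and 127.3 FPKM in BDL and 63.28, 52.41 and 128.5 FPKM in MDR. MDR replicate 3 was level with the lowest BDL library, so the groups overlapped by that library. The difference in Cebpb was -1.22 ± 0.321 (SE, adjusted p = 0.0279 by limma). The adjusted p was 0.0827, 0.074, 0.073 and 0.123 without BDL replicates 1 and 2 and MDR replicates 1 and 2, 0.082 on the 6 libraries compared alone, and 0.0593 without both libraries that stood apart.

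Cebpd, its relative and a gene that Stat3 activates, was at 16.85, 14.39 and 9.410 FPKM in BDL and 3.723, 4.788 and 10.96 FPKM in MDR. MDR replicate 3 was again the high library of its group. The difference was -1.04 ± 0.388 (SE, adjusted p = 0.0857 by limma), and without MDR replicate 3 it was -1.44 with an adjusted p of 0.0449.

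Bcl3, an I kappa B family protein that works in the nucleus with NF-kappa B subunits, was at 18.50, 63.39 and 38.47 FPKM in BDL and 31.47, 17.27 and 22.13 FPKM in MDR. Here BDL replicate 1 was the low library of its group, the reverse of its place for Cebpb. The difference was -0.62 ± 0.363 (SE, adjusted p = 0.241 by limma). Without BDL replicate 1 it was -1.07 with an adjusted p of 0.0353, and without both libraries that stood apart the adjusted p was 0.0215. Without BDL replicate 2, the high library, it was -0.213 with an adjusted p of 0.642.

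The same comparison was made between the treated groups, MDR_H against BDL_H, which share no library with the untreated ones. Both comparisons take their spread from the same fit over the 12 libraries, so their tests are not independent. Of the 10 genes, 2 were lower in MDR_H, Socs3 and Il1r1, and none was called higher. Over all genes tested 0.935% were called lower and 7.36% higher, and the median difference was -0.53 over the 10 genes and 0.20 over all genes. Socs3, Stat3, Il6ra, Il1r1 and Bcl3 had groups that lay apart with MDR_H lower, as did 4.55% of all genes tested, and none lay apart the other way, as did 32.4%. HDCA was given for 4 days in one model and for 21 days in the other, so the duration cannot be told apart from the model here.

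Socs3 was at 16.47, 82.81 and 23.23 FPKM in BDL_H and 3.682, 7.231 and 2.950 FPKM in MDR_H. Replicate 2 of BDL_H was far above every other library, and the lowest BDL_H library was still above the highest MDR_H one. The difference was -2.62 ± 0.481 (SE, adjusted p = 0.0136 by limma), and -1.95 without both libraries that stood apart (adjusted p = 0.0066). Without MDR_H replicate 1 or replicate 3 the adjusted p was 0.0519 and 0.0517.

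Il1r1 was at 10.70, 35.47 and 18.79 FPKM in BDL_H and 5.694, 7.938 and 5.373 FPKM in MDR_H. Replicate 2 of BDL_H was again the highest, and the groups did not overlap. The difference was -1.49 ± 0.359 (SE, adjusted p = 0.0328 by limma). It was called in 6 of the 12 fits that left out 1 library, and was -1.07 without BDL_H replicate 2 (adjusted p = 0.0875).

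Stat3 was at 43.54, 62.48 and 45.06 FPKM in BDL_H and 28.04, 35.79 and 35.49 FPKM in MDR_H. The groups did not overlap, and the difference of -0.58 ± 0.165 (SE) was of the size seen without HDCA but was not called (adjusted p = 0.0531 by limma). It was called with quantile normalization, at an adjusted p of 0.0497, with array weights, at 0.0437, and without BDL replicate 1, at 0.043. BDL replicate 1 is in neither treated group, so leaving it out changed the spread of the fit and not the difference.

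Il6ra was at 11.28, 21.56 and 15.64 FPKM in BDL_H and 7.106, 8.394 and 9.802 FPKM in MDR_H. The groups did not overlap, with a difference of -0.83 ± 0.269 (SE, adjusted p = 0.0775 by limma). It was called with array weights, at an adjusted p of 0.042, without BDL replicate 1, at 0.0268, and without both libraries that stood apart, at 0.046. BDL replicate 1 is again outside the groups compared. Bcl3 was at 35.53, 50.29 and 41.36 FPKM in BDL_H and 27.55, 28.55 and 19.92 FPKM in MDR_H, also without overlap, with a difference of -0.72 ± 0.363 (SE, adjusted p = 0.215 by limma).

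Cebpb differed by -0.22 (adjusted p = 0.673 by limma) between the treated groups, with 114.3, 146.4 and 111.9 FPKM in BDL_H against 90.31, 93.19 and 138.8 FPKM in MDR_H. Cebpd differed by -0.49 (adjusted p = 0.431), with 6.888, 19.59 and 12.77 FPKM against 7.870, 6.929 and 10.55 FPKM. Both factors overlapped between the treated groups. Il6st differed by 0.26 (adjusted p = 0.527), with 38.78, 30.59 and 42.84 FPKM in BDL_H and 36.02, 48.56 and 50.82 FPKM in MDR_H, and its difference was -0.00814 with median-of-ratios scaling. Osmr differed by 0.11 (adjusted p = 0.787), with -0.0952 under median-of-ratios scaling and -0.122 under quantile normalization. Il1rn differed by 0.89 ± 0.443 (SE, adjusted p = 0.214), with 5.476, 2.269 and 13.48 FPKM in BDL_H against 11.35, 12.56 and 10.54 FPKM in MDR_H. Without BDL_H replicate 3 the Il1rn difference was 1.44 and was called (adjusted p = 0.0486), and without BDL_H replicate 2 it was 0.363 (adjusted p = 0.637). Without that last library the differences were also nearer to 0 for Cebpb (-0.102), Cebpd (-0.16) and Il6st (0.128). Il1rn spread widely in BDL_H, and its lowest value was in BDL_H replicate 2, where Socs3 and Il1r1 were highest.

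**Figure D2:**
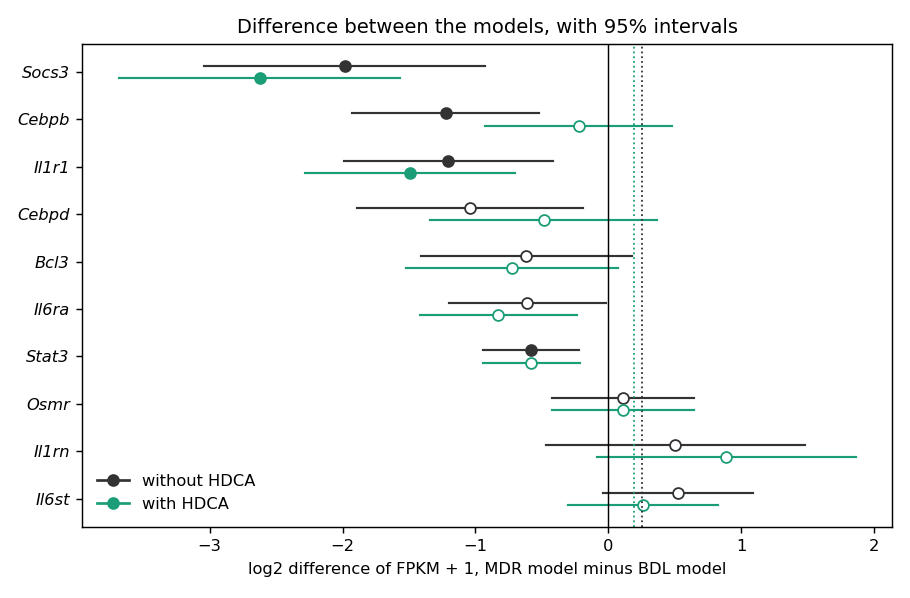
Difference between the models in log2(FPKM + 1) for each gene, MDR minus BDL without HDCA and MDR_H minus BDL_H with HDCA. Points are limma estimates, bars are their 95% intervals, filled points passed an adjusted p of 0.05, and the dotted lines are the medians over all genes tested, at 0.25 and 0.20. Socs3 lies farthest to the left in both comparisons, and Osmr, Il1rn and Il6st lie to the right of 0, where Osmr in both comparisons and Il6st in the treated one turn negative with median-of-ratios scaling.

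With both comparisons side by side, 7 of the 10 genes had a negative difference in each: Socs3, Stat3, Il6ra, Il1r1, Cebpb, Cebpd and Bcl3. These differences stayed negative in all 12 fits that left out 1 library. Only the 6 fits without a library of the groups compared could change the sign, since the others leave the difference as it was. Socs3, Stat3 and Il1r1 were higher in all 6 libraries with ligation than in all 6 others, a pattern that 1.21% of the genes tested had, while 19.4% had the reverse. MDR replicate 1, the library of its model with Y-linked RNA, was at 3.690 FPKM for Socs3, 35.67 for Stat3 and 6.946 for Il1r1, each within the range of the other 5 MDR and MDR_H libraries. This is 1 library with no label of sex, and the part of the Y-linked difference in these levels was not tested.

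The order of the 4 groups put BDL or BDL_H first for these 7 genes. For Socs3 the means ran from 40.8 ± 36.5 FPKM in BDL_H and 19.9 ± 3.86 in BDL to 4.62 ± 2.29 in MDR_H and 4.33 ± 1.21 in MDR (SD, n = 3 each). The 2 groups within a model overlapped, and the step from BDL to MDR_H did not. Stat3 ran from 50.9 ± 7.71 in BDL and 50.4 ± 10.5 in BDL_H to 33.5 ± 2.5 in MDR and 33.1 ± 4.39 in MDR_H, with the same single gap between the models. Il1r1 ran from 21.7 ± 12.6 in BDL_H and 17.7 ± 6.03 in BDL to 6.79 ± 0.569 in MDR and 6.33 ± 1.4 in MDR_H, again with 1 gap. For the other 7 genes every neighbouring pair of groups in the order overlapped. Cebpb ran from 183 ± 52.8 FPKM in BDL through 124 ± 19.2 in BDL_H and 107 ± 27.2 in MDR_H to 81.4 ± 41.2 in MDR.

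HDCA was tested within each model against the untreated group. None of the 10 genes was called in BDL_H against BDL, in MDR_H against MDR, or in the difference between these effects, where 0% of the 10805 genes tested were called by limma. At an unadjusted p under 0.05 there were 243, 61 and 200 genes, and limma-voom on recovered reads also called 0. With array weights 1 gene, which was none of the 10, was called for HDCA in the ligation model and 0 in the other comparisons, with 1533, 383 and 1033 genes at an unadjusted p under 0.05. The groups with and without HDCA overlapped for all 10 genes in both models, where 5.03% of all genes tested lay apart in the ligation model and 5.95% in the MDR model. The median difference over the 10 genes was 0.14 in the ligation model, against 0.03 over all genes, and 0.07 in the MDR model, against -0.04. The first of these medians was -0.139 without both libraries that stood apart and -0.43 with array weights. These values do not show that HDCA left the genes as they were: the SE of a single difference ran up to 0.481 on the log2 scale.

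Socs3 had a difference of 0.67 ± 0.481 (SE) with HDCA in the ligation model, and this rested on 1 library. Without BDL_H replicate 2 the difference was -0.00841. The other BDL_H values, 16.47 and 23.23 FPKM, lay beside the BDL values of 15.76 to 23.35 FPKM. In the MDR model the untreated libraries ran from 3.565 to 5.721 FPKM and the treated ones from 2.950 to 7.231 FPKM. Cebpb, Cebpd, Il1r1 and Il1rn had HDCA differences of opposite sign in the 2 models. For Cebpb they were -0.52 ± 0.321 in the ligation model and 0.48 ± 0.321 in the MDR model. The difference between them was 1.00 ± 0.454 (SE, unadjusted p = 0.0492, adjusted p = 1 by limma), so it did not pass the test. Cebpd was 0.44 ± 0.388 (SE) higher in MDR_H than in MDR on the log2 scale, with 7.870, 6.929 and 10.55 FPKM against 3.723, 4.788 and 10.96 FPKM, and the groups overlapped through MDR replicate 3. No label pairs MDR with MDR_H libraries, and same-numbered ones were set side by side from their values alone, as a description only. Those numbered 1 differed in Y-linked sum, at 20.1 FPKM in MDR and 0.016 FPKM in MDR_H. Between same-numbered libraries Cebpb was higher with HDCA in all 3, from 63.28 to 90.31, from 52.41 to 93.19 and from 128.5 to 138.8 FPKM. None of the other 9 genes was, and 5.77% of all genes tested were. With the replicate block, which ties same-numbered libraries across all 4 groups, Cebpb was not called either (adjusted p = 1 by limma). With blocks within each model instead, 0 genes were called for HDCA in the MDR model.

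Ratios between partners within a library do not change when the whole library is scaled by a single factor. Quantile normalization is not such a scaling and can change them, and ratios under it were not taken. The ratios were chosen after the values were seen and are given with no test. The ratio of antagonist to receptor, Il1rn to Il1r1, was 0.216, 0.479 and 0.755 in BDL and 0.512, 0.064 and 0.717 in BDL_H. It was 1.15, 1.82 and 1.88 in MDR and 1.99, 1.58 and 1.96 in MDR_H. The antagonist transcript was thus below the receptor transcript in every ligation library and above it in every other library. The ratio of Il6ra to Il6st was 1.08, 0.266 and 0.256 in BDL and 0.291, 0.705 and 0.365 in BDL_H. It was 0.163 to 0.198 in MDR and 0.173 to 0.197 in MDR_H. All 6 ligation libraries were above all others, and the 2 high values, 1.08 and 0.705, came from the libraries that stood apart. The ratio of Socs3 to Stat3 was 0.351 to 0.431 in BDL, 0.378 to 1.33 in BDL_H, 0.103 to 0.186 in MDR and 0.0831 to 0.202 in MDR_H.

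**Figure D3:**
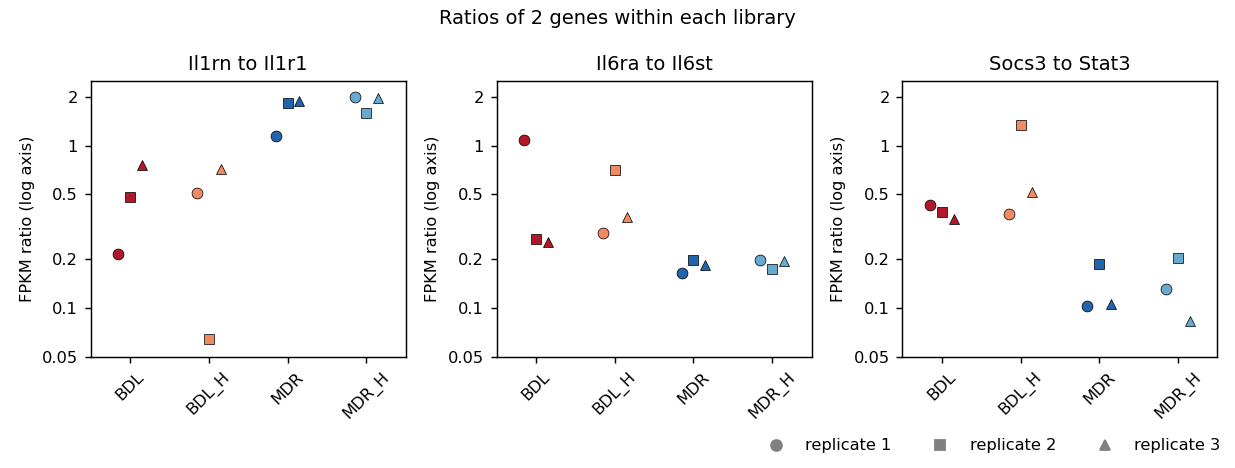
FPKM of the first gene divided by FPKM of the second within each library (log axis), by group, with the marker shape giving the replicate number. The ratio of Il1rn to Il1r1 is under 1 in all 6 ligation libraries, where it is at most 0.755, and at least 1.15 in the other 6, and both other ratios are higher in all 6 ligation libraries.

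Replicates of a group differed in ways that several of the 10 genes shared. Deviations from the group means were correlated over the 12 libraries as a description. Socs3 and Il1r1 had r = 0.895, and r = 0.791 over the 10 libraries left without the 2 that stood apart. Cebpb and Cebpd had r = 0.821 both with and without those libraries, and MDR replicate 3 was high for both. Il6ra and Cebpd had r = 0.762 and 0.788. For other pairs the sign hung on those libraries: Il6ra and Il6st had r = -0.591 over 12 libraries and 0.798 over 10, and Socs3 and Il1rn had -0.443 and 0.615. All of these points share library preparation and scaling.

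The 2 libraries that stood apart carried the extremes of the ligation model. BDL_H replicate 2 was the highest of the 6 ligation libraries for Socs3, Stat3, Il6ra, Il1r1 and Cebpd and the lowest for Il1rn. BDL replicate 1 was the highest of the 6 for Cebpb and the lowest for Il6st, Osmr and Bcl3.

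**Figure D4:**
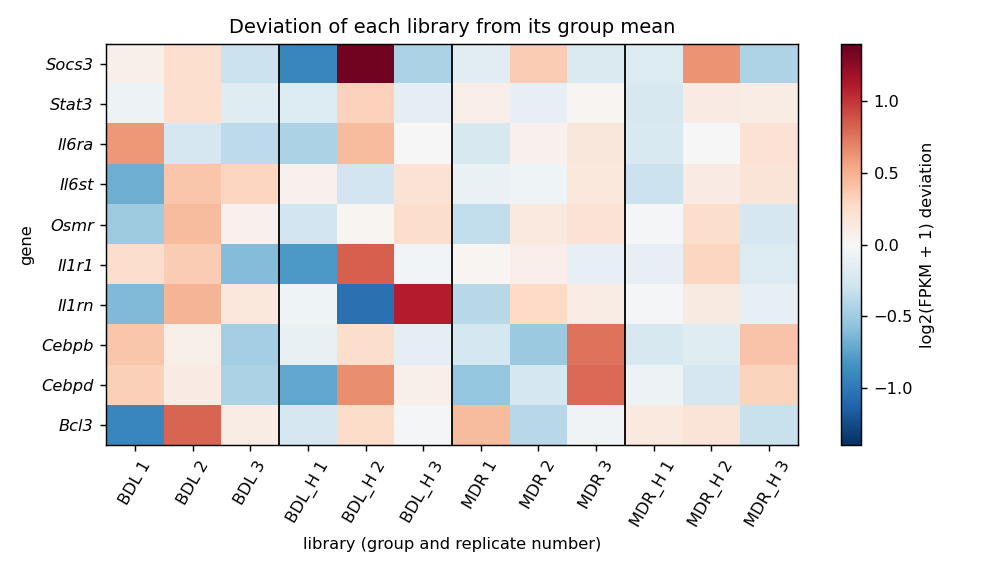
Deviation of each library from its group mean in log2(FPKM + 1), for the 10 genes (vertical) in the 12 libraries (horizontal), with red above and blue below the mean. BDL_H replicate 2 is above its group mean for Socs3 and Il1r1 and below it for Il1rn, and MDR replicate 3 is above for Cebpb and Cebpd.

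The tested genes whose deviations were most like those of Socs3 were Afdn (r = 0.938), Junb (0.895), Il1r1 (0.895), Tmem268 (0.895) and Cgref1 (0.885). Junb encodes an AP-1 subunit. For Cebpd they were Rgs1 (0.959), Per1 (0.933), Cdip1 (0.931), Arhgef26 (0.929) and Slc25a51 (0.906). Per1 is a clock gene. For Il1r1 they were Stx18 (0.923), Csrnp1 (0.901), Hp (0.9), Mt2 (0.896) and B4galt1 (0.895), of which Hp encodes haptoglobin and Mt2 a metallothionein, both acute phase products. For Bcl3 they were Tdg (0.946), Ikbkg (0.925), Eif3b (0.922), Eif2b4 (0.918) and Abcf2 (0.909). These were the highest values among the 10805 genes once unnamed predicted genes were passed over, and they describe 12 libraries only. Over the 10 libraries left without the 2 that stood apart, r ran from 0.686 (Cgref1) to 0.866 (Afdn) for the genes like Socs3 and from 0.896 (Slc25a51) to 0.977 (Rgs1) for those like Cebpd. It ran from 0.821 (Stx18) to 0.901 (Csrnp1) for those like Il1r1 and from 0.771 (Eif2b4) to 0.918 (Eif3b) for those like Bcl3.

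The rest of the pathway was read from 6 lists, and each count stands beside the shares over all genes tested: 15.1% higher and 1.07% lower between the untreated models, and 7.36% higher and 0.935% lower between the treated ones. The list of 12 ligands was of the IL-6 and IL-1 families apart from Tnf, and 7 were tested, Tnf among them. Of these, 1 was higher in MDR than in BDL, the alarmin Il33 with 2.228 to 3.077 FPKM against 0.6768 to 1.503 FPKM (difference 0.74, adjusted p = 0.0314 by limma). Il33 was not called with median-of-ratios scaling (0.518, adjusted p = 0.0552) or quantile normalization (0.356, adjusted p = 0.0724). Il6 itself was not tested. It was at most 0.2415 FPKM in any library and was listed at 0 in 4 of the 6 MDR and MDR_H libraries. Osm, Lif, Il11 and Cntf were not tested either. Il1b, the main secreted IL-1, ran from 2.107 to 6.028 FPKM in the ligation libraries and from 3.103 to 8.032 FPKM in the others.

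Of 10 other receptors of these families, 5 were tested. Il27ra, the IL-27 receptor chain that pairs with gp130, was higher without HDCA (0.70, adjusted p = 0.0148 by limma) and with it (0.62, adjusted p = 0.0378), though its levels were low, 0.1429 to 0.6485 FPKM in the ligation libraries and 0.8921 to 1.555 FPKM in the others. With quantile normalization it was not called in either. Lifr, the chain that pairs with gp130 to bind leukaemia inhibitory factor, was higher in MDR_H, with 14.91 to 17.72 FPKM against 3.820 to 8.612 FPKM in BDL_H (1.27, adjusted p = 0.0131).

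Of 15 kinases and brakes of the JAK-STAT arm, 14 were tested and 2 were higher in each comparison, and none was lower. Without HDCA this is near the 15.1% of all genes that were higher. Stat5b, a STAT factor of growth hormone signalling, was at 12.41 to 13.36 FPKM in MDR and 6.989 to 8.169 FPKM in BDL (0.71, adjusted p = 0.0138 by limma), and was higher also with HDCA (0.66, adjusted p = 0.0316). With median-of-ratios scaling it was not called in either (adjusted p = 0.0786 and 0.0744). Socs2, the brake on growth hormone signalling, was higher in MDR_H at 2.565 to 4.457 FPKM than in BDL_H at 0.3611 to 1.018 FPKM (1.28, adjusted p = 0.0357), and was not called with that scaling (1.14, adjusted p = 0.0748) or with quantile normalization (1.05, adjusted p = 0.0827). Pias3, an inhibitor of Stat3, was higher in MDR (0.50, adjusted p = 0.0452) and lost this call in 16 of 21 alternative settings, with values of 0.251 and 0.124 under the 2 scalings. Socs3 was thus lower while its relative Socs2 was higher in the treated MDR model.

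Of 24 genes of the IL-1 receptor and NF-kappa B arm, 1 was called, Tab1, an adaptor of the kinase Map3k7. It was at 2.184 to 3.021 FPKM in MDR and 1.337 to 1.484 FPKM in BDL (0.55, adjusted p = 0.027 by limma), and was not called with median-of-ratios scaling (0.302, adjusted p = 0.171) or quantile normalization (0.176, adjusted p = 0.454). No gene of the arm was called between the treated groups.

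Of 14 other C/EBP and partner factors, 1 was higher and 2 were lower in MDR. With median-of-ratios scaling 5 were lower, where 486 of all 10805 genes tested were. With quantile normalization 7 were lower, where 393 of all genes tested were. Junb was at 45.02 to 57.70 FPKM in BDL and 17.83 to 22.27 FPKM in MDR (-1.24, adjusted p = 0.00691 by limma) and was lower also in MDR_H (-1.86, adjusted p = 0.00286). It was called in both comparisons under every alternative setting, each single library left out included. Fos, the AP-1 partner of Jun proteins, was lower in MDR (-1.22, adjusted p = 0.0397), with 2.831 to 6.949 FPKM in BDL and 1.325 to 1.743 FPKM in MDR. Cebpa, the C/EBP factor of mature hepatocytes, was on the other side from Cebpb, at 80.24 to 103.9 FPKM in BDL and 159.1 to 169.8 FPKM in MDR (0.90, adjusted p = 0.00329). It was higher with HDCA too (0.68, adjusted p = 0.0181), and was called in neither comparison with median-of-ratios scaling (0.535 with adjusted p = 0.126, and 0.409 with adjusted p = 0.258).

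Several of these calls hung on 1 library. Without MDR replicate 2 the calls between untreated models were lost for Il33 (adjusted p = 0.13 by limma), Il27ra (0.0707), Stat5b (0.0528), Pias3 (0.142), Tab1 (0.117) and Fos (0.12). Without MDR_H replicate 2 those between treated models were lost for Lifr (0.0544), Il27ra (0.119), Stat5b (0.0925), Socs2 (0.115) and Cebpa (0.0614). Over all alternative settings, the untreated calls held in 14 of 21 for Il33, 18 of 21 for Il27ra, 20 of 22 for Stat5b, 14 of 21 for Tab1, 10 of 21 for Fos and 21 of 22 for Cebpa. The treated ones held in 21 of 22 for Lifr, 8 of 21 for Il27ra, 14 of 22 for Stat5b, 9 of 21 for Socs2 and 18 of 22 for Cebpa.

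The acute phase and STAT3 target list held 36 genes, all tested. Of these, 18 were lower in MDR than in BDL and 15 lower in MDR_H than in BDL_H, and none was called higher, where 1.07% and 0.935% of all genes were lower and 15.1% and 7.36% higher. The median differences were -1.02 and -0.93. Orm2, an orosomucoid, was at 498.2 to 823.0 FPKM in BDL and 59.98 to 162.0 FPKM in MDR (-2.62, adjusted p = 0.00417 by limma). Mt2 was at 252.7 to 1521 FPKM in BDL and 27.53 to 52.04 FPKM in MDR (-4.05, adjusted p = 0.00676). Apcs, serum amyloid P, differed by -2.26 (adjusted p = 0.00731) and Orm1 by -1.33 (adjusted p = 0.00885). These 4 were lower also between the treated groups, by -2.15, -3.18, -1.66 and -1.20 (adjusted p = 0.0174, 0.0293, 0.0383 and 0.0248), and each of these 4 treated calls was lost without BDL_H replicate 2 (adjusted p = 0.0531, 0.0861, 0.105 and 0.0786). Orm1 and Orm2 are close copies, so the division of reads between them is uncertain. Without 1 library the count without HDCA ran from 7, without MDR replicate 2, to 24, without BDL_H replicate 2, and the count with HDCA from 1, without MDR_H replicate 3, to 17, without BDL replicate 1. In those 4 fits, in that order, 37, 178, 23 and 175 of all 10805 genes tested were lower. Without both libraries that stood apart the counts were 24 and 16, where 361 of all genes tested were lower in each comparison. For HDCA within a model, no gene of the 6 lists was called.

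**Figure D5:**
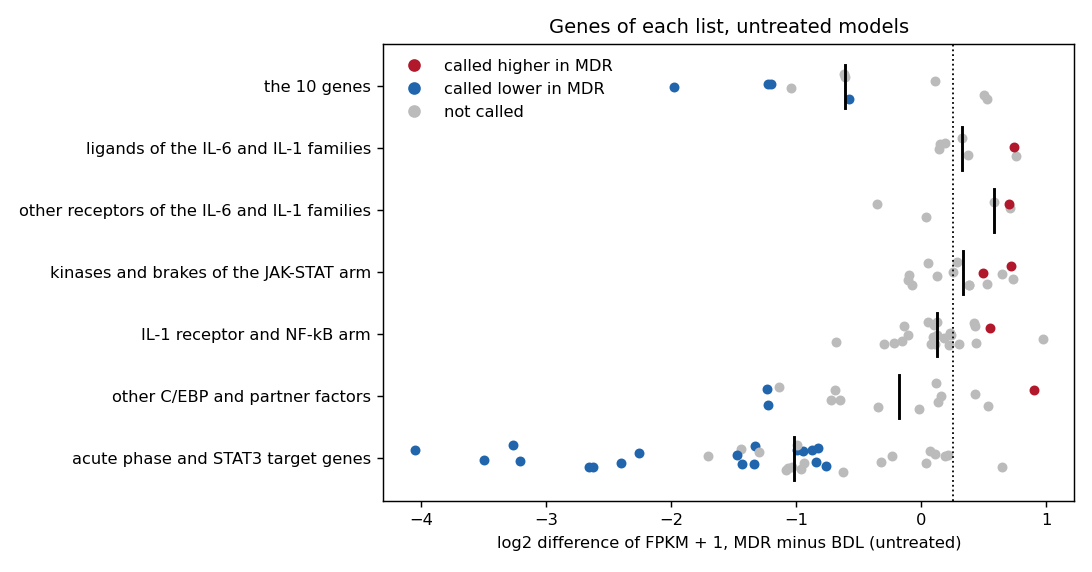
Difference between untreated MDR and untreated BDL in log2(FPKM + 1) for each tested gene of the 10 genes and the 6 lists. Colours give the call at an adjusted p of 0.05, the short bar is the median of a list and the dotted line the median over all genes tested, at 0.25. The acute phase list lies mostly left of 0, with a median of -1.02. The ligand list, which includes Tnf, has a median of 0.32, which was 0.09 with median-of-ratios scaling and -0.08 with quantile normalization.

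Between the untreated groups, every called marker of the other liver cells was higher in MDR, the other direction from Socs3. Over all genes tested, 15.1% were called higher and 1.07% lower. Summed FPKM of 10 stellate cell and fibroblast markers was 68.3 to 233 in the ligation libraries and 236 to 471 in the others, and 8 of the 10 were higher in MDR. The sum of 10 endothelial markers was 34.1 to 152 against 166 to 213, with 6 higher, and the low end was BDL replicate 1 alone, the next ligation library being at 102. The sum of 8 cholangiocyte markers was 18.0 to 26.9 against 32.2 to 65.1, with 4 of 6 tested higher. The sum of 9 monocyte-derived macrophage markers was 191 to 791 against 735 to 1580, with 3 higher. That of 9 Kupffer cell markers was 270 to 694 against 511 to 762, with 1 higher, or 11.1%, under the share over all genes. T and NK cell, B cell and erythroid markers had 2 of 4, 2 of 3 and 3 of 5 tested genes higher. Their sums were 1.26 to 3.84 against 5.63 to 10.8, 0.771 to 2.94 against 5.53 to 18.5, and 91.9 to 319 against 270 to 478. For macrophage, Kupffer cell, T and NK cell, B cell and erythroid markers the lowest sums were in the 2 libraries that stood apart. The next ligation library was at 436, 524, 2.51, 2.12 and 195, which for Kupffer cells is inside the range of the MDR and MDR_H libraries. Neutrophil markers had 0 of 5 tested genes called, with sums of 26.3 to 93.7 against 17.6 to 61.6. The sum of 10 hepatocyte markers was 47600 to 58500 in the ligation libraries and 32200 to 50000 in the others, with 1 lower in MDR. These calls are between the untreated groups. Between the treated groups 5 stellate cell, 2 cholangiocyte, 1 Kupffer cell, 1 T and NK cell and 0 endothelial, macrophage, erythroid and B cell markers were higher, 1 neutrophil marker (Retnlg) was lower and 0 hepatocyte markers were called. Over all genes tested, 7.36% were higher and 0.935% lower between the treated groups. Between the untreated groups with quantile normalization, 7 stellate cell, 2 endothelial, 3 cholangiocyte, 2 macrophage and 1 erythroid markers were higher. There 0 Kupffer cell, 0 T and NK cell and 0 B cell markers were higher, and 1 T and NK cell marker was lower. Of all 10805 genes tested, 548 were higher and 393 lower under that setting. No marker was at 0 in every library. The part of these cells in the levels of the 10 genes was not tested.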

How the data were processed

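Liver RNA was extracted with TRIzol and polyA libraries were prepared using a VAHTS Universal V6 kit, as the labels' protocols state. CASAVA 1.8, fastp, HISAT2 2.0.5, featureCounts 1.5.0-p3, DESeq2 1.20.0 and the build GRCm38 (mm10) are named, with no order or role, per the submitters' processing notes. The sources used here do not give the annotation release or the use of strand. The authors deposited FPKM values for 16970 gene symbols in 12 libraries.

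From these, log2(FPKM + 1) was tested with limma 3.58.1 in R 4.3.3, with trend, on the means of the 4 groups (8 residual degrees of freedom). Genes that reached 1 FPKM in 3 or more libraries were tested, two-sided, with Benjamini-Hochberg adjustment over all 10805. The pseudocount of 1 understates the change of low genes. Whole reads were recovered within 0.02 of a read for 99.99% of values and used only for depth and for limma-voom. The fit was also run on simulated reads with known changes. Those held no libraries that stand apart and no shift over all genes, so they do not check calls under such conditions.

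The 10 genes, the lists and the tests were chosen with earlier results of these data known. Named from each list were the called genes, at most the 4 with the smallest adjusted p. Likeness was the correlation of deviations from group means, with the 5 highest genes named for Socs3, Cebpd, Bcl3 and Il1r1. Unnamed predicted genes, told by the form of their symbols, were passed over. Same-numbered MDR and MDR_H libraries had deviations that correlated at 0.312 to 0.548, and differently numbered ones at -0.462 to 0.0103. The same-numbered ones were therefore set side by side as pairs, from the values alone. Differently numbered BDL replicate 1 and BDL_H replicate 2 also reached 0.548, so such values do not establish pairs. The numbers did not pair BDL with BDL_H (-0.43 to 0.431) or the models with each other (-0.244 to -0.0344).

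Alternatives were another pseudocount (0.1), no filter, a mean FPKM of at least 5, median-of-ratios scaling, quantile normalization, array weights, only the groups compared, limma-voom, a replicate block and each library left out. Leaving out a library outside the groups compared changes the shared spread and the adjusted p but cannot change the difference. The replicate block tied same-numbered libraries across all 4 groups. For HDCA, blocks within each model were also fitted. Leaving out both libraries that stood apart was added after seeing the data.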

Additional observations from a re-analysis of the deposited data

Results flagged for a closer look

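Tollip, a binding partner of the IL-1 receptor complex that dampens its signal, was the single gene of 179 looked at in the lists whose groups with and without HDCA lay apart in opposite directions in the 2 models. It was at 15.01, 16.96 and 17.05 FPKM in BDL and 17.36, 17.47 and 18.50 FPKM in BDL_H, higher with HDCA in every library. It was at 19.41, 19.26 and 18.88 FPKM in MDR and 18.57, 18.16 and 18.26 FPKM in MDR_H, lower with HDCA in every library. The difference between the effects was -0.1788 on the log2 scale (adjusted p = 1 by limma), so it did not pass the test. Of all 10805 genes tested, 28 (0.259%) had groups apart in opposite directions.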

How the results depend on the processing

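Without HDCA 4 of the 10 genes were called. The count was 2 on the libraries of the groups compared alone, and 0 to 4 with 1 library left out: 0 without BDL replicate 2, MDR replicate 1 or MDR replicate 2, and 2 without BDL replicate 1, MDR replicate 3, MDR_H replicate 2 or MDR_H replicate 3. The share called over all genes tested also moved, from 16.2% to 6.75% on the groups compared alone and to 4.53% to 21.7% with 1 library left out. Between the treated models that share was 8.29%. It was 5.17% with no filter, 5.02% on the groups compared alone, 25.5% with array weights and 1.55% to 14.3% with 1 library left out. With HDCA 2 of the 10 genes were called. The count was 1 with no filter, 1 on the groups compared alone, 4 with array weights, and 0 to 4 with 1 library left out: 0 without MDR_H replicate 1 or 3, 1 without BDL_H replicate 2, MDR replicate 3 or MDR_H replicate 2, and 4 without BDL replicate 1. With the replicate block the counts were 4 and 2, with 0 for HDCA, and no call on the 10 genes changed, while those of Pias3 between untreated models and Il27ra, Socs2 and Apcs between treated ones were lost. The median over the 10 genes became -0.961 with median-of-ratios scaling for the untreated models and -0.231 with array weights for the treated ones. For HDCA in BDL it was -0.43 with array weights and -0.139 without both libraries that stood apart, and for the difference of HDCA effects 0.469 with array weights. The sign turned for Socs3 with HDCA in BDL (-0.178 with array weights, -0.00841 to 1.12 with 1 library left out) and for Il6st between treated models (-0.00814 with median-of-ratios scaling). It turned for Osmr between untreated models (-0.146 with median-of-ratios scaling, -0.235 with quantile normalization, -0.138 with array weights, -0.139 without both libraries, -0.139 to 0.33 with 1 left out) and treated ones (-0.0952, -0.122, and -0.023 to 0.232 with 1 left out). Over all genes, median-of-ratios scaling moved the untreated median from 0.25 to -0.05 and the split of higher against lower calls from 1630 and 116 to 640 and 486, and quantile normalization to 548 and 393. A fit without a library outside the groups compared cannot turn the sign of a difference. With such fits counted in, 986 single values over all 10 genes and 5 comparisons kept their direction and call. Of the rest, 40 lost a call, 11 gained one and 78 turned sign. The cause was not tested. FPKM holds no depth of its own, and 3 libraries a group limit the precision.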
